A study of Mus musculus with 116 samples.

Results

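The nuclear genes for the subunits of the oxidative phosphorylation machinery were taken from the count tables of 2 mouse cell lines. Genes were chosen by symbol alone: subunits of complex I (Nduf genes of the a, b, c, s and v series), complex II (Sdha to Sdhd), complex III (Uqcr genes and Cyc1), cytochrome c (Cycs), complex IV (Cox4 to Cox8 genes with a subunit letter) and complex V, the ATP synthase (Atp5 genes), without pseudogenes and assembly factors. Of 40202 gene symbols in the tables, 88 met the rule: 41 of complex I, 4 of complex II, 9 of complex III, 1 for cytochrome c, 16 of complex IV and 17 of complex V. The spelling of the rule left out Cox4i1, Cox4i2 and Ndufab1, which are also subunit genes. The rule uses no measured value, though it was set with earlier results of these data known.

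The 116 libraries came from nanoSPLITS, in which the lysate of 1 cell or a few cells sits in a nanodroplet that is divided, so that RNA and protein can be measured from the same material. The C10 line, labelled as alveolar type II epithelium of the lung, gave an input series of 1 cell (n = 8), 3 cells (n = 6) and 10 cells (n = 6) per library, and a separate set of 48 single cells. SVEC, an endothelial line, gave 48 single cells. No cells were treated, and all were grown in standard culture. Total counts were 430798 to 15385625 in the 1-cell libraries, 6889508 to 14018116 with 3 cells and 8313314 to 14778988 with 10 cells. In single cells the medians were 1881700 for C10 once the 2 libraries under 1000 counts had been dropped (n = 46) and 434945 for SVEC (n = 48), so line and depth moved together. Cell type markers gave little check of the labels. Of 13 alveolar epithelial markers, 6 had no count in any C10 single cell, among them the surfactant genes Sftpb and Sftpc, and of 12 endothelial markers, 6 had none in any SVEC cell, among them Kdr and Cldn5. Nothing in the labels says that libraries came from separate cultures, so the p-values below measure only the spread between these libraries.

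Oxidative phosphorylation takes place in the inner mitochondrial membrane. Complexes I and II feed electrons from NADH and succinate to ubiquinone, complex III passes them to cytochrome c, complex IV passes them to oxygen, and complex V uses the proton gradient made on the way to form ATP. Complexes I, III, IV and V hold subunits from the nuclear and from the mitochondrial genome, while complex II is wholly nuclear, and some nuclear subunits have tissue-specific paralogs.

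Nearly all of the constitutive subunit genes were detected in both lines. The 88 genes held 3.51% ± 0.768 (SD, n = 46) of all counts in C10 single cells, with a range of 1.77% to 5.76%, and 3.73% ± 1.34 (SD, n = 48) in SVEC single cells, with a range of 1.65% to 8.08%. In the input series the share was 2.92% ± 0.609 (SD, n = 8) with 1 cell, 3.11% ± 0.133 (SD, n = 6) with 3 cells and 3.41% ± 0.129 (SD, n = 6) with 10 cells. The SVEC range covered that of every C10 group, but its ends lay in shallow libraries, of 95959 counts (lowest) and 5122 counts (highest). Among SVEC libraries of at least 100000 counts the share ran from 1.78% to 5.87%, close to the range of C10 single cells. Complex I genes took 1.26% of counts in C10 and 1.28% in SVEC single cells, complex V genes 1.10% and 1.30%, complex IV genes 0.616% and 0.661%, complex III genes 0.335% and 0.314%, complex II genes 0.135% and 0.130%, and Cycs 0.0638% and 0.0442%. Libraries held at least 1 count for 77 to 79 of the 88 genes with 3 cells, 77 to 78 with 10 cells and 70 to 79 in C10 single cells. In SVEC the range was 27 to 80, and the values under 60 were in libraries of 5122 to 166762 counts. After each library was drawn down to 100000 counts, the mean was 76.4 genes in C10 (n = 45) and 73.6 in SVEC (n = 42).

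**Figure D1:**
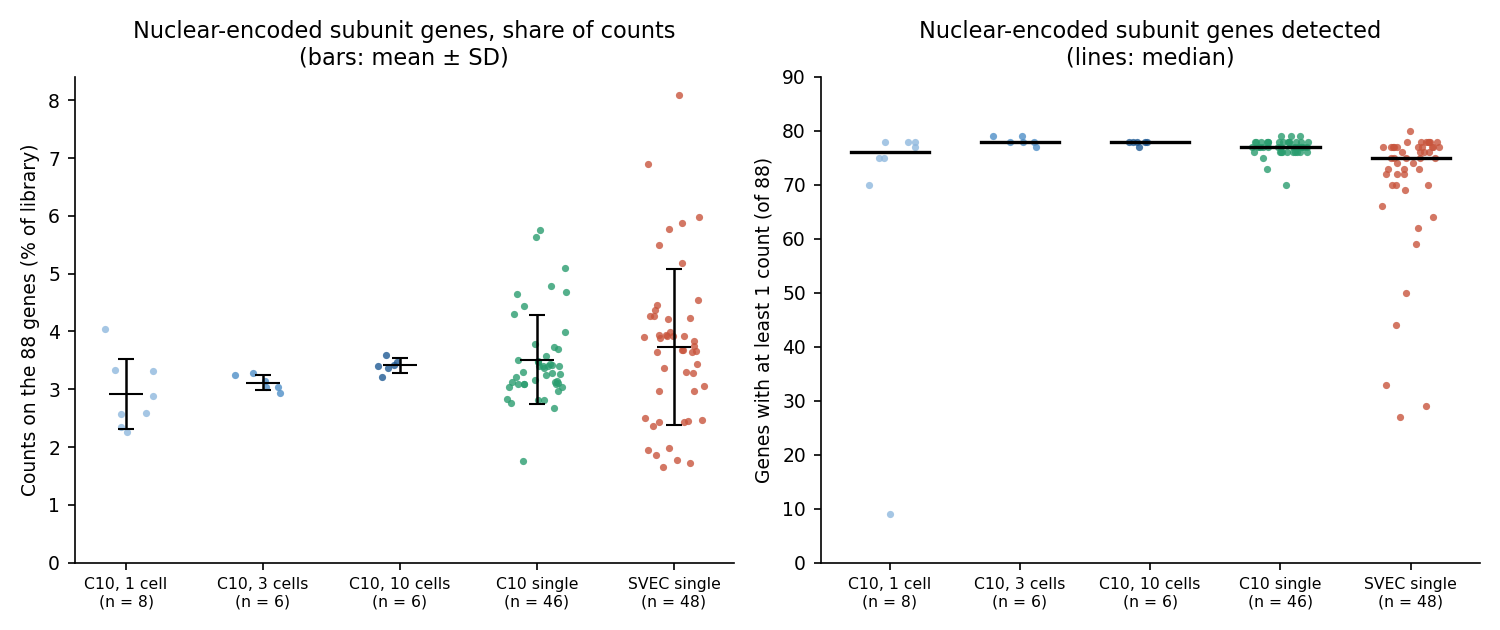
Left, the percentage of each library's counts on the 88 genes, with mean and SD per group; right, the number of the 88 genes with at least 1 count, with the group median as a line. Each point is a library: shares overlap in all 5 groups, and 1 library of the 1-cell group holds 9 of the genes.

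Of the 88 genes, 10 were too rarely detected to test. Cox6a2, Cox6b2, Cox8b and Cox8c are paralogs of complex IV subunits known from muscle or testis. These genes, with Ndufb4b, Ndufb4c and Ndufs6b, had 0 counts in all 116 libraries. If counts were independent, this would allow up to 3 counts of 341908703, or 0.00877 CPM. Counts of PCR copies are not independent molecules, so the limit on the RNA itself is wider. Reads of Ndufb4c and Ndufs6b could be shared with the near-identical Ndufb4 and Ndufs6, so that limit may not hold for them. Cox7a1, the muscle and heart paralog of Cox7a2, had 2 counts, both in SVEC cells. Cox7b2 had 152 counts in a single 3-cell library, and Ndufa4l2, a paralog of Ndufa4 known as a hypoxia-induced gene, had 393 counts in 6 libraries. The other 78 genes passed the filter on low counts.

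Per transcript length, levels of the 78 tested genes spanned a wide range within a complex. Levels are given as CPM, the count divided by the library total and multiplied by 1000000. In complex I of C10 single cells, the median level was highest for Ndufa4, at 2987 CPM per kb, and lowest for Ndufs1, at 5.19 CPM per kb. Ndufs1 encodes the largest subunit, which carries iron-sulfur clusters, and was detected in 52.2% of C10 and 54.2% of SVEC cells. In complex II the range ran from 43.97 for Sdha, the flavoprotein that oxidises succinate, to 398 CPM per kb for Sdhd, a membrane anchor. Complex V was highest at Atp5md, at 2710 CPM per kb in C10 and 3560 in SVEC, and lowest in C10 at Atp5a1, the alpha subunit of the catalytic head, at 213 CPM per kb. The order of the extremes was shared for Ndufs1, Sdha, Sdhd, Uqcrc2, Cox7a2l and Atp5md, which were the lowest or highest of their complex in both lines. Median levels of the tested genes by complex were 314 and 272 CPM per kb for complex I in C10 and SVEC, 179 and 141 for complex II, 185 and 243 for complex III, 782 and 837 for complex IV, and 741 and 798 for complex V. Lengths were those of annotated transcripts from another source than the counts, so these levels are approximate.

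Between the lines, 19 of the 78 tested genes were higher in C10 than in SVEC single cells and 0 were lower (edgeR quasi-likelihood test with TMM scaling, adjusted p under 0.05 over 9303 genes). Among all genes tested, 14.4% were higher in C10 and 4.48% were lower. The median log2 fold change was 0.38 for the 78 genes and 0.35 for all genes tested, so the family as a whole lay at the general shift of this fit. That was not so in every fit with TMM scaling. With the replicate number as a block the medians were 0.62 for the family and 1.29 for all genes. With the number of detected genes as a covariate they were 0.13 and −0.09. The count depended on the scaling. With library totals in place of TMM, 3 of the genes were higher and 6 lower in C10 (edgeR, background 9.89% and 7.2%), and the medians were −0.04 for the 78 genes and −0.0023 for all genes. By limma on log2(CPM + 1), 21 were higher and 0 lower (background 31.1% and 3.53%), of which 11 were shared with the 19, and by DESeq2 34 were higher and 0 lower (background 14% and 2.26%). After the 45 C10 and 42 SVEC libraries of at least 100000 counts were drawn down to that number, 2 genes were higher in C10, Ndufa4 and Ndufb2, and 0 lower (background 8.92% and 5.24%). A stricter filter kept genes that reached 90% detection in either line, C10 or SVEC. With it, and TMM scaling kept, 6 were higher and 6 lower (background in that fit 19.7% and 6.99%). In C10 75 family genes reached 90%, against 40 in SVEC. Cox7a2l (62.5% of SVEC cells) and Ndufb2 (79.2%) thus entered through C10 alone.

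**Figure D2:**
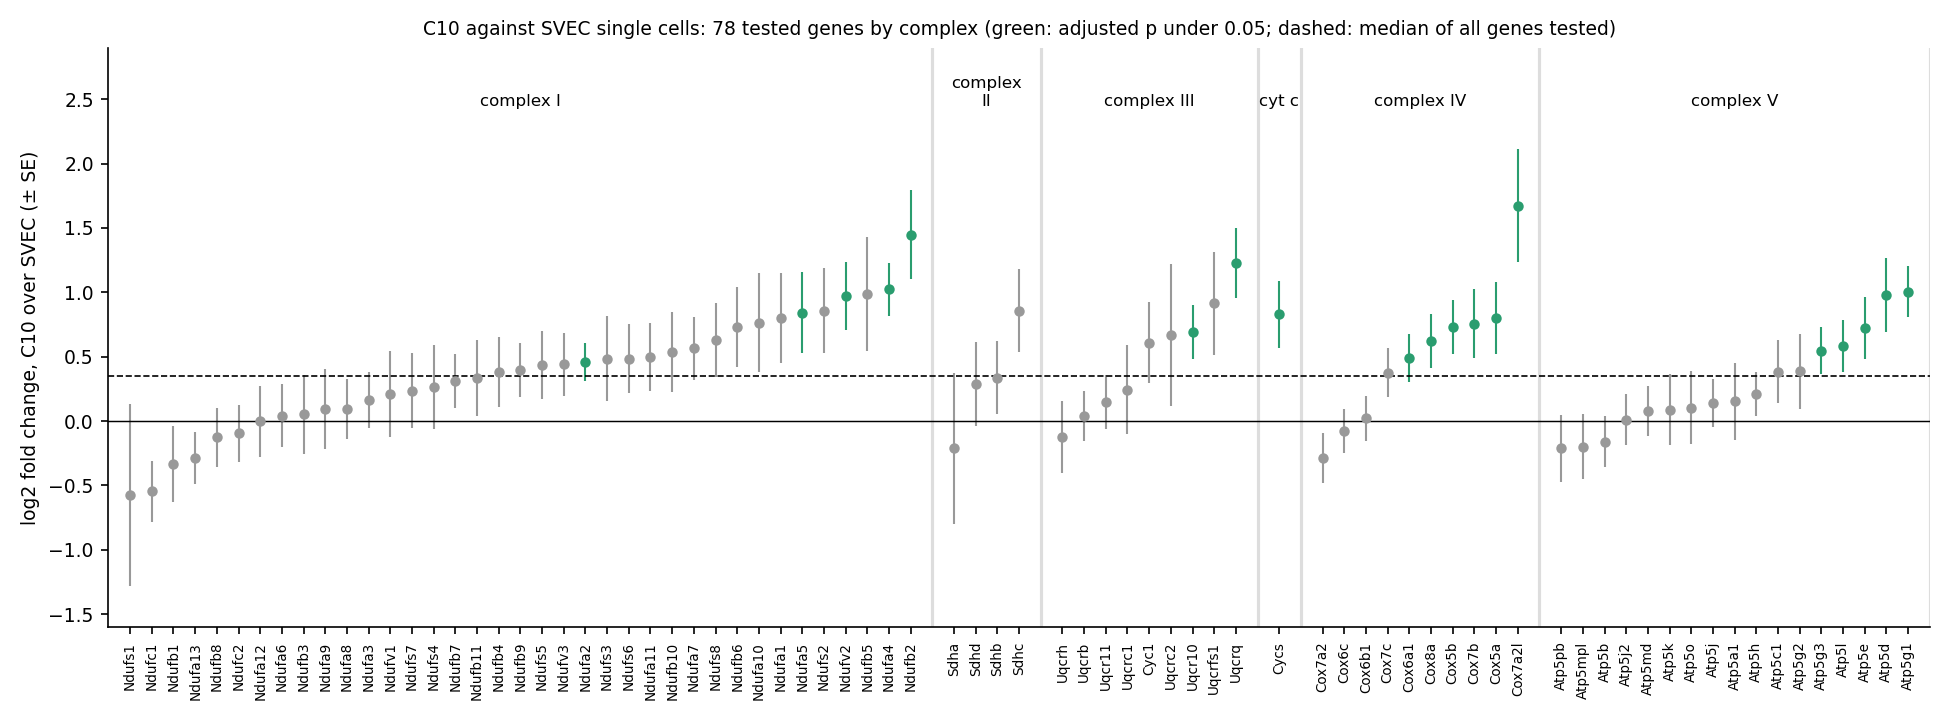
The log2 fold change of C10 over SVEC single cells with its SE for each of the 78 tested genes, ordered within complexes; the dashed line is the median of all genes tested, at 0.35. The 19 green points, all above 0, passed the edgeR test, and Cox7a2l and Ndufb2 lie highest.

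By complex, the genes called higher in C10 were 5 of 37 in complex I, 0 of 4 in complex II, 2 of 9 in complex III, Cycs, 6 of 10 in complex IV and 5 of 17 in complex V (background 14.4% of all genes tested). Relative to the median of all genes tested, the median log2 fold change was 0.05 for complex I, −0.03 for complex II, 0.26 for complex III, 0.21 for complex IV and −0.19 for complex V. These differences between complexes were not tested, and the counts moved with the method. By limma 10 genes of complex I, 1 of complex II, 4 of complex III, Cycs, 3 of complex IV and 2 of complex V were higher and 0 lower (background 31.1% and 3.53%). With library totals complex I had 2 higher and 3 lower, complex IV 1 higher and 2 lower, and complex V 0 higher and 1 lower (background 9.89% and 7.2%).

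Among the complex I genes, Ndufa4 was called higher in C10 under all 11 settings tried. It was named for complex I and its protein is now placed with complex IV. The lowest, median and highest levels were 413, 1350 and 3320 CPM in C10 cells, against 0, 716 and 4295 CPM in SVEC cells. The ranges overlap, with the C10 median higher, and Ndufa4 had at least 1 count in 46 of 46 C10 and 46 of 48 SVEC cells. Its log2 fold change was 1.02 (SE 0.20, edgeR adjusted p = 4.5e-05), a 2.03-fold difference, and 0.59 with library totals (edgeR adjusted p = 0.0369). The C10 libraries of the input series held less of it than the C10 single cells. Their means were 533 CPM with 1 cell (609 CPM without replicate 1), 807 CPM with 3 cells and 860 CPM with 10 cells. The mean in SVEC single cells was 949 CPM, above all 3 of these groups.

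Ndufb2, an accessory subunit of the membrane arm, was at 1.76, 404 and 1156 CPM (lowest, median and highest) in C10 cells and at 0, 166 and 709 CPM in SVEC cells. It was detected in 100% of C10 and 79.2% of SVEC cells, and most C10 cells lay above the SVEC median. The log2 fold change was 1.45 (SE 0.35, edgeR adjusted p = 0.000819), and 1.14 with library totals (edgeR adjusted p = 0.0113). Its C10 means were 207 CPM with 1 cell, 254 CPM with 3 cells and 309 CPM with 10 cells. They lay between those of the 2 single-cell groups, which were 444 and 198 CPM, and the 1-cell mean was close to that of SVEC. Ndufv2, a core subunit near the NADH site, had a log2 fold change of 0.97 (edgeR adjusted p = 0.00377), with means of 424 and 270 CPM. Ndufa5 and Ndufa2, accessory subunits, passed more narrowly, at 0.84 (edgeR adjusted p = 0.0478) and 0.46 (edgeR adjusted p = 0.0199). With library totals the log2 fold change of Ndufa2 was −0.04. Ndufv1, the NADH-binding subunit, was at 299 and 314 CPM (log2 fold change 0.21, edgeR adjusted p = 0.746).

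A few complex I genes leaned to SVEC. Ndufc1, chosen here after its values were seen, was at 86.5, 307 and 1272 CPM (lowest, median and highest) in C10 and at 0, 616 and 3514 CPM in SVEC. Its median was higher in SVEC, and the fold change was −0.55 on the log2 scale with TMM scaling (edgeR adjusted p = 0.0975) and −0.99 with library totals (edgeR adjusted p = 0.00135). The other genes called lower in C10 with library totals were Ndufc2, Ndufa13, Cox6c, Cox7a2 and Atp5mpl. None of these 6 was called with TMM scaling over all genes that passed the filter on low counts. In the TMM fit of genes that reached 90% detection in either line, Ndufc1, Ndufa13, Cox7a2 and Cox6c were called lower in C10, with Ndufb1 and Atp5b.

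None of the 4 complex II genes was called with TMM scaling. Sdhc, a membrane anchor, fell just outside the threshold, with means of 407 and 275 CPM, a log2 fold change of 0.86 (SE 0.32) and an edgeR adjusted p of 0.05001. It passed by limma (adjusted p = 0.00665) and by DESeq2 (adjusted p = 0.00339). Sdhb, the iron-sulfur subunit, was at 268 and 278 CPM (edgeR adjusted p = 0.471), and Sdhd was at 519 and 530 CPM (edgeR adjusted p = 0.625). Sdha was detected in 73.9% of C10 and 68.8% of SVEC cells and had means of 151 and 221 CPM (edgeR adjusted p = 0.867).

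In complex III, Uqcrq, a small subunit of the membrane part, was at 147, 745 and 1827 CPM (lowest, median and highest) in C10 cells and at 0, 344 and 3641 CPM in SVEC cells. The C10 median exceeded the SVEC median, although 1 SVEC library held the highest value. The log2 fold change was 1.23 (SE 0.27, edgeR adjusted p = 0.000241), and 0.74 with library totals (edgeR adjusted p = 0.0558). Uqcrq overlaps Gdf9 in the annotation, and whether the counting used strand is not given in the sources used here. Uqcr10 was also higher in C10, at 617 against 506 CPM (log2 fold change 0.69, edgeR adjusted p = 0.0104). The core genes did not pass: Uqcrfs1, the Rieske protein, was at 165 and 102 CPM (edgeR adjusted p = 0.104), Cyc1, cytochrome c1, at 178 and 140 CPM (edgeR adjusted p = 0.176), and Uqcrc1 at 283 and 316 CPM (edgeR adjusted p = 0.706). Cycs, the mobile electron carrier, was higher in C10, at 638 against 442 CPM (log2 fold change 0.83, SE 0.26, edgeR adjusted p = 0.0151).

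Complex IV held the largest fold change of the family. Cox7a2l, known for a part in joining complexes III and IV into supercomplexes, was at 34.3, 138 and 437 CPM (lowest, median and highest) in C10 cells and at 0, 46.9 and 380 CPM in SVEC cells. It was detected in 46 of 46 C10 cells and 30 of 48 SVEC cells. The log2 fold change was 1.67 (SE 0.44, edgeR adjusted p = 0.00249), a 3.19-fold difference, and 1.37 with library totals (edgeR adjusted p = 0.0166). In the C10 input series its means were 209 CPM with 3 cells and 188 CPM with 10 cells. These were near the 172 CPM of C10 single cells and above the SVEC mean of 64.2 CPM. The 1-cell libraries had a mean of 141 CPM, but a median of 66.6 CPM, nearer to that of SVEC, with a range of 0 to 403 CPM. Reads of Cox7a2l could be shared with a near-identical copy, Gm6969. Its paralog Cox7a2 went the other way on library totals (−0.71 on the log2 scale, edgeR adjusted p = 0.00533). With TMM scaling and the wider filter Cox7a2 was not called, at −0.29 (edgeR adjusted p = 0.344). It was called with genes that reached 90% detection in either line, at −0.64 (edgeR adjusted p = 0.00292). Cox5a, Cox5b, Cox6a1, Cox7b and Cox8a passed with TMM scaling at log2 fold changes of 0.80, 0.73, 0.49, 0.76 and 0.62, and none of these 5 was called with library totals.

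In complex V, Atp5g1, Atp5g2 and Atp5g3 are 3 genes for the same mature c subunit of the rotor ring. Atp5g1 was at 175, 512 and 1177 CPM (lowest, median and highest) in C10 cells and at 0, 330 and 2579 CPM in SVEC cells. Its C10 values sat higher on the whole, with 1 SVEC library above all of them. The log2 fold change was 1.00 (SE 0.20, edgeR adjusted p = 3.5e-05), and 0.53 with library totals (edgeR adjusted p = 0.0622). Atp5g3 was at 875 and 783 CPM (log2 fold change 0.55, edgeR adjusted p = 0.0216) and Atp5g2 at 111 and 107 CPM (0.39, edgeR adjusted p = 0.413). In both lines the order of the means was Atp5g3, Atp5g1, Atp5g2, although Atp5g1 has a near-identical copy, Gm10039. Atp5d, the delta subunit of the central stalk, was higher in C10 at 254 against 166 CPM (log2 fold change 0.98, edgeR adjusted p = 0.00769). The catalytic head genes were not called in the TMM fit of all filtered genes: Atp5a1 was at 597 and 693 CPM (edgeR adjusted p = 0.804), and Atp5b, the beta subunit, at 1639 and 2255 CPM (log2 fold change −0.16, edgeR adjusted p = 0.665). With genes that reached 90% detection in either line, Atp5b was called lower in C10, at −0.50 (edgeR adjusted p = 0.0437). Atp5j, the coupling factor of the peripheral stalk, and Atp5md, a small membrane subunit, were among the most abundant of the family, at 1233 and 1087 CPM in C10 and 1527 and 1476 CPM in SVEC (edgeR adjusted p = 0.687 and 0.845).

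**Figure D3:**
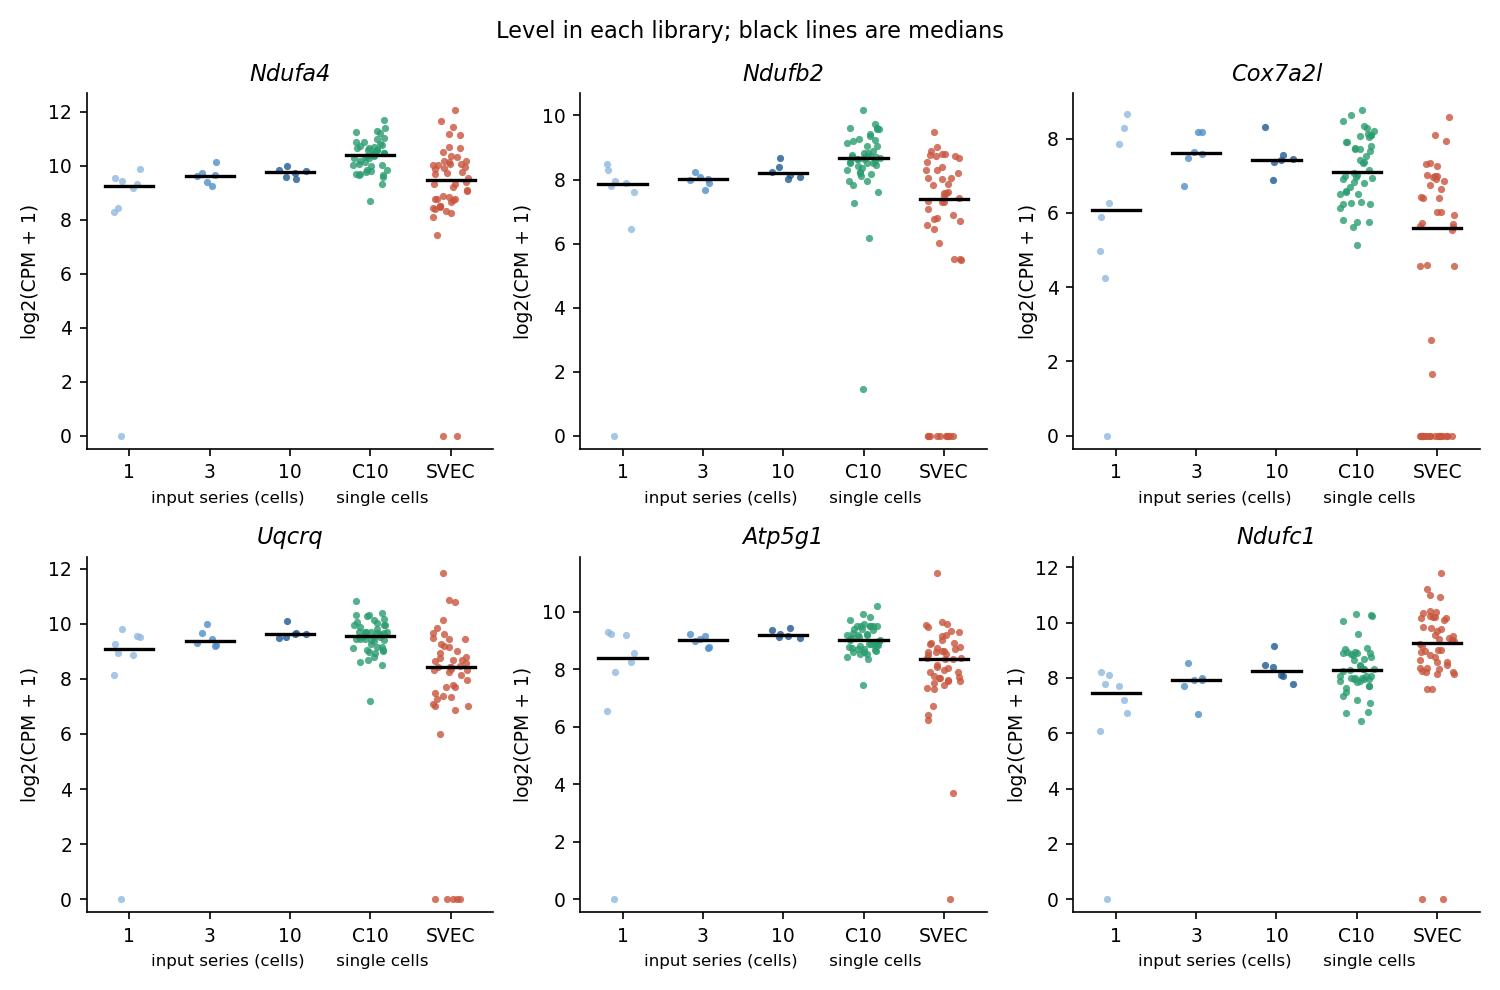
Levels as log2(CPM + 1) of Ndufa4, Ndufb2, Cox7a2l, Uqcrq, Atp5g1 and Ndufc1 in every library, by group (1, 3 and 10 cells of the C10 input series, then C10 and SVEC single cells), with medians as lines. Points at 0 are libraries with no count, most numerous for Cox7a2l in SVEC, where 30 of 48 cells had a count.

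The promoters of these genes were read for sites of factors known to act on mitochondrial genes. A table from RefSeq (build GRCm38.p6) gave 250 bases before the start for 71 of the 88 genes. The table was searched for 3 motifs, on both strands: for NRF1 the letters GCGCA and GCGC with any base (N) between them, CCGGAAG for ETS factors that include GABPA, and AANATGGCG for YY1. The NRF1 letters were in 18.3% of the 71 promoters, against 4.23% of all 27025 genes in the table and 9.95% of the 7439 genes that were tested between the lines. ETS letters were in 16.9%, against 7.83% and 17%, and YY1 letters in 4.23%, against 1.29% and 2.81%. Of the 19 genes called higher in C10, 17 had a promoter in the table and 4 of those held a motif (Atp5e, Atp5l, Cox6a1 and Ndufa5), while 20 of 49 genes not called did. The 3 genes called with every one of TMM scaling, library totals, limma and DESeq2 are shown first, and hold none of these letters. Cox6a1, called with TMM scaling, and Sdha, not called, follow as examples with NRF1 letters, and capitals mark the matches (NRF1, and in Cox6a1 also 1 ETS match on the opposite strand). Ndufa4 lies at chr6:11907451-11907700 (minus strand), Ndufb2 at chr6:39592315-39592564 (plus), Cox7a2l at chr17:83514334-83514583 (minus), Cox6a1 at chr5:115348959-115349208 (minus) and Sdha at chr13:74350241-74350490 (minus).
Ndufa4: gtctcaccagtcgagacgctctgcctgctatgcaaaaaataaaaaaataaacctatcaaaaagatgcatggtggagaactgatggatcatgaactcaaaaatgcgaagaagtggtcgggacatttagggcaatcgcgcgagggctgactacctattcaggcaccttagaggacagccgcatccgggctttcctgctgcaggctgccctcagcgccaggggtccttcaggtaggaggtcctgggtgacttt
Ndufb2: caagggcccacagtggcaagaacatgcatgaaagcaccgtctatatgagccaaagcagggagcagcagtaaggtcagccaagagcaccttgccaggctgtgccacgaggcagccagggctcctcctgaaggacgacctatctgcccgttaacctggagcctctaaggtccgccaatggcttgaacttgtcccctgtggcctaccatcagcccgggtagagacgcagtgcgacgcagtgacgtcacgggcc
Cox7a2l: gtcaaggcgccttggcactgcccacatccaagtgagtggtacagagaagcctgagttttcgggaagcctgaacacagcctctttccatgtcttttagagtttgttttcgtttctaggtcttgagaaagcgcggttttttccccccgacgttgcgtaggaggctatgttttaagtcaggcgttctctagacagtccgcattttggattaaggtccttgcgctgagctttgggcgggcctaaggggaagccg
Cox6a1: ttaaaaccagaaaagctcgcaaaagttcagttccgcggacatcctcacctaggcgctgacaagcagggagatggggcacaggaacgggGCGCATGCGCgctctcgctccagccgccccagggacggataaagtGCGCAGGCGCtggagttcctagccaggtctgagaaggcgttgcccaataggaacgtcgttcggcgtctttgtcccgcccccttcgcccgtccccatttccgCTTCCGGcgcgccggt
Sdha: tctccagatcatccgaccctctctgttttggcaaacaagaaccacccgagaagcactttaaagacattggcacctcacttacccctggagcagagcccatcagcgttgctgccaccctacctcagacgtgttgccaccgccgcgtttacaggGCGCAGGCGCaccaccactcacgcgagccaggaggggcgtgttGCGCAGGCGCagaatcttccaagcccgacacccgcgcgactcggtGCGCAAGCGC

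Other lists of genes were compared in the same fit. The counts below stand beside 14.4% of all genes tested higher and 4.48% lower in C10 by edgeR with TMM scaling. These shares were 31.1% and 3.53% by limma, and 9.89% and 7.2% by edgeR with library totals. Of the 13 mitochondrially encoded subunits of the same complexes, 10 were higher in C10 and 0 lower, with a median log2 fold change of 1.11; with library totals 6 were higher and 1 lower, and by limma 7 and 1. ND1 was at 6259 and 4108 CPM in C10 and SVEC (log2 fold change 1.19, SE 0.16, edgeR adjusted p = 1.7e-09), while ND4 was at 3388 and 6053 CPM (−0.19, edgeR adjusted p = 0.572). Of 42 tested assembly factors, 1 was higher by edgeR, Ndufaf4, and 0 lower, while limma called 13 higher. None of 8 tested transcriptional regulators of mitochondrial genes was called by edgeR, and 1 was by limma. Among 14 enzymes of the tricarboxylic acid cycle, Idh2, the mitochondrial NADP-dependent isocitrate dehydrogenase, was lower in C10, at 26.9 against 258 CPM (log2 fold change −2.96, SE 0.66, edgeR adjusted p = 0.000258), and 0 were higher by edgeR. By limma 4 of these enzymes were higher and 1 lower, and with library totals 0 and 2. Of 10 carriers and channels, 3 were higher: the phosphate carrier Slc25a3, the ADP/ATP carrier Slc25a5 and the outer membrane channel Vdac1. By limma 5 of these 10 were higher, and with library totals 0 were called. Marker lists of the 2 cell types held 3 tested genes each, of which 2 endothelial (Tek higher, Flt1 lower in C10) and 1 epithelial (Cdh1, higher in C10) passed by edgeR, and 0 and 1 by limma.

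Cell-to-cell spread was smaller for the family than for other well detected genes in C10. Over genes with a count in at least 90% of libraries of at least 100000 counts, the median coefficient of variation was 0.470 for 75 family genes and 0.656 for 1887 genes in C10 (n = 45), where the family also had the higher median level, 389 against 201 CPM. In SVEC (n = 42) the medians were 0.611 and 0.669, at levels of 381 and 381 CPM. Atp5g3 varied least of the family in both lines, at 0.278 and 0.403. Pairs of family genes had a median Spearman correlation across cells of 0.175 in C10, against 0.0214 for pairs of all such genes, and of 0.226 against 0.0511 in SVEC. The points of each pair share the library, its depth and its scaling, so these values are descriptions.

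Nuclear and mitochondrially encoded shares were set against each other in the same cells. Across 42 SVEC cells of at least 100000 counts, the share of counts on the 88 nuclear genes and that on the 13 mitochondrially encoded genes had a Spearman coefficient of 0.724 and a Pearson coefficient of 0.659, or 0.664 without the 2 cells farthest from the median. The relation rests on that minimum. Over all 48 SVEC cells the Spearman coefficient was 0.460 and the Pearson coefficient −0.0981, and 2 of the 6 cells under it, replicates 24 and 48, had mitochondrial shares of 18.6% and 19.8% with nuclear shares of 1.65% and 1.73%. In 45 C10 cells the Spearman coefficient was 0.357 and the Pearson coefficient −0.176, which became 0.366 without the 2 farthest cells. A single C10 cell stands apart at a mitochondrial share of 16.8% and a nuclear share of 1.77%. The nuclear share also fell with depth, at a Spearman coefficient of −0.439 with log total counts in C10 and −0.366 in SVEC. The part of depth in the relation was not tested.

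**Figure D4:**
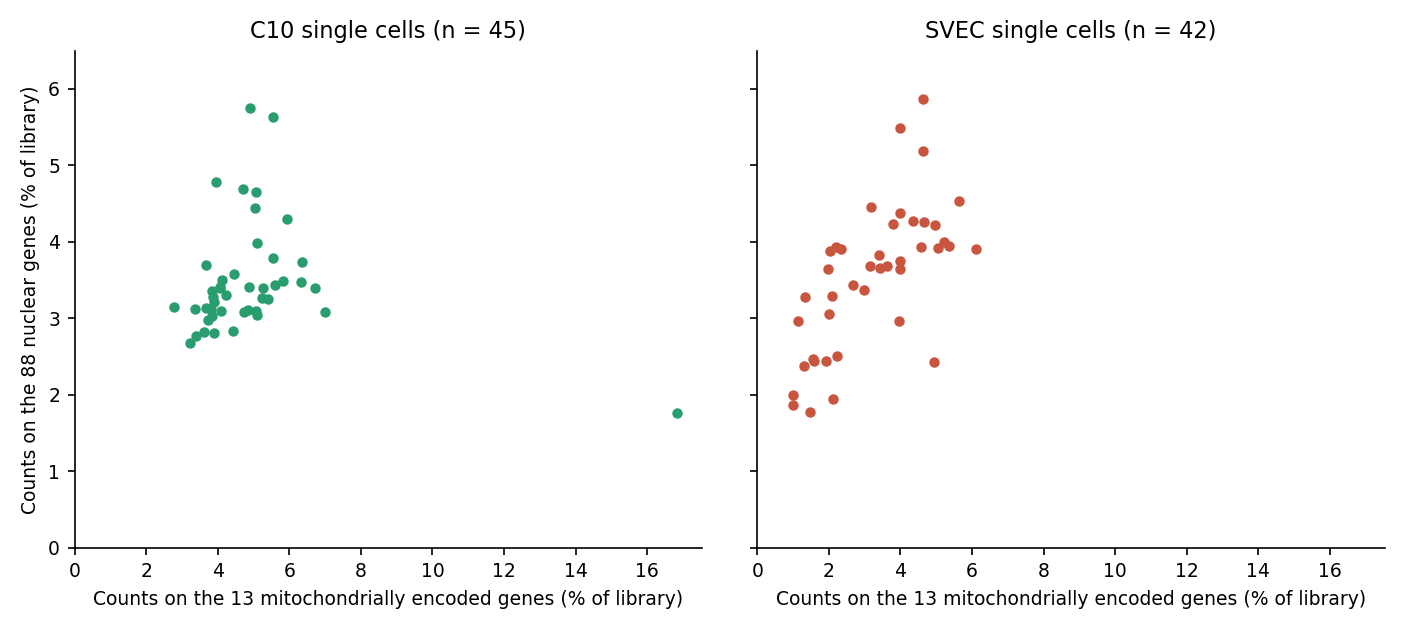
Percentage of counts on the 88 nuclear genes against that on the 13 mitochondrially encoded genes, 1 point per single cell with at least 100000 counts, C10 (n = 45) on the left and SVEC (n = 42) on the right. The SVEC points rise together, the 6 shallower SVEC cells are not drawn, and 1 C10 cell lies at 16.8% mitochondrial counts.

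In the input series the question was whether the measured profile changed with the number of cells in the droplet. No family gene was called in any of the 3 comparisons by edgeR. For 10 cells against 1 cell, 0 of 78 genes passed by edgeR (background 10.6% of genes higher and 0.0879% lower with 10 cells). The number with an unadjusted edgeR p below 0.05 was also 0, against 2581 of all 13645 genes tested. Limma called 0 of them (background 10.4% higher and 0% lower) and DESeq2 called 7 lower with 10 cells (background 7.19% higher and 0.982% lower). For 3 cells against 1 cell, edgeR called 0 of 78 (background 6.07% higher and 0.278% lower). Again 0 were below 0.05 before adjustment, against 2417 of all 13645 genes tested. Limma called 0 (background 0.887% higher and 0% lower) and DESeq2 called 3 lower with 3 cells (background 7.06% higher and 1.87% lower). For 10 against 3 cells, edgeR called 0 of 78 (background 0% in either direction). Before adjustment 0 of the family were below 0.05 by edgeR, against 1346 of all 13645 genes tested. Limma called 0 (background 0.257% higher and 0% lower) and DESeq2 0 (background 1.52% higher and 0.0879% lower). Both comparisons with 1 cell share the 1-cell libraries, of which replicate 1 held only 9 of the 88 genes. Without that library, 1 family gene was below 0.05 before adjustment for 10 cells and 4 for 3 cells. The numbers over all 13643 genes were then 2534 and 2363, and 0 of the family passed after adjustment. How far replicate 1 widened the spread in these fits was not tested.

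The spread over libraries was smaller with more cells, a difference that was not tested. The median coefficient of variation of the 78 genes was 0.712 with 1 cell (n = 8), 0.523 without the 1-cell replicate described next (n = 7), 0.273 with 3 cells (n = 6) and 0.208 with 10 cells (n = 6). For Atp5g3 the lowest, median and highest levels were 0, 640 and 2256 CPM with 1 cell, 785, 897 and 936 CPM with 3 cells, and 881, 1173 and 1293 CPM with 10 cells. Its 3-cell values lie within a narrow band, and the 1-cell values spread to both sides of it. Sdha and Ndufs1 were exceptions that stayed patchy in pools. Sdha was at 0.145, 4.98, 112, 144, 191 and 344 CPM in the 6 libraries of 3 cells, and at 0.105, 45.8, 48.1, 75.2, 115 and 117 CPM in those of 10 cells. So 1 library of each size was close to 0 while others reached over 100 CPM, and Sdha had the highest coefficient of variation of the 78 genes with 3 cells (0.969) and with 10 cells (0.674). Ndufs1 was at 0 in 1 library of each size and reached 61.5 CPM with 3 cells and 40.4 CPM with 10 cells.

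One of the 8 libraries of 1 cell, replicate 1, stands apart. It held 430798 counts and only 9 of the 88 genes: Atp5j, Cox7a2, Cox7c, Cox8a, Cycs, Ndufa7, Ndufb9, Ndufs6 and Uqcr10. Each of the 9 had 585 to 1961 counts, and 24.1% of all counts fell on the 13 mitochondrially encoded genes. Cycs was at 4552 CPM there and at 144, 633 and 955 CPM (lowest, median and highest) in the other 7 libraries. Uqcr10 was at 3607 CPM, against 319, 505 and 1192 CPM in the others. The library therefore set the highest value of the 1-cell group for both genes, and 0 for the other 79.

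The C10 single cells and the 1-cell libraries of the input series are both single C10 cells, from separate sets. Set and group cannot be told apart. In this comparison 12 of 78 family genes were lower in the single-cell set and 0 higher (edgeR, background 11.4% lower and 3.61% higher). The median log2 fold change of the family was −0.36, beside −0.36 for all genes tested. Without replicate 1 of the 1-cell libraries, 7 were lower and 4 higher (background 8.59% and 3.34%), and leaving out each 1-cell library in turn gave 3 to 12 called genes, with 6 without replicate 5, 7 without replicate 10 and 3 without replicate 13 or 14, while the share of all genes called ran from 10.9% to 14.9%. With library totals 2 were lower and 6 higher (background 7.62% and 4.33%), by limma 2 were lower and 25 higher (background 4.19% and 5.21%), and by DESeq2 39 were lower and 0 higher (background 8.04% and 4.23%). Of the 13 mitochondrially encoded subunits, 12 were lower in the single-cell set by edgeR, and 5 by limma.

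Cox8a, a small subunit of complex IV, and Ndufb9, an accessory subunit of complex I, were called lower in the single-cell set in 16 of 17 settings, the exception being the fit with replicate numbers as a block. Cox8a was at 245, 458 and 852 CPM (lowest, median and highest) in C10 single cells and at 457, 1162 and 3134 CPM in the 1-cell libraries. It was at 705, 1036 and 1504 CPM with 3 cells and at 895, 1450 and 1630 CPM with 10 cells. Every 10-cell library lies above every C10 single cell, and the 1-cell and 3-cell ranges overlap with the single cells only at their low ends. The log2 fold change against the 1-cell libraries was −1.94 (SE 0.20, edgeR adjusted p = 9.7e-12), and −1.44 without replicate 1 (edgeR adjusted p = 5.2e-08). SVEC single cells, at 0, 378 and 917 CPM, lay with the C10 single cells and below most of the input series. Ndufb9 had medians of 418 CPM in C10 single cells, 704 with 1 cell, 506 with 3 cells and 657 with 10 cells, with a log2 fold change of −1.66 (SE 0.25, edgeR adjusted p = 7.9e-07) and −1.12 without replicate 1 (edgeR adjusted p = 0.000584). Reads of Ndufb9 could be shared with a near-identical copy, Gm49356. The calls of Cycs, Uqcr10, Cox7a2, Ndufa7 and Ndufa9 were lost without replicate 1, at edgeR adjusted p-values of 0.942, 0.555, 0.207, 0.825 and 0.186. Ndufa9 had a count of 0 in replicate 1, so its higher 1-cell values lay in other libraries. Its log2 fold change was −1.28 with replicate 1 and −0.87 without. Atp5g2, Cyc1, Atp5e, Uqcrh and Atp5d were lower by edgeR with and without replicate 1. None of them was called without replicate 13 or with library totals, where the 2 genes called lower were Cox8a and Ndufb9. By limma the log2 differences of Atp5d, Atp5e and Uqcrh were 0.23, 0.23 and 0.57, toward the single-cell set, and did not pass.

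**Figure D5:**
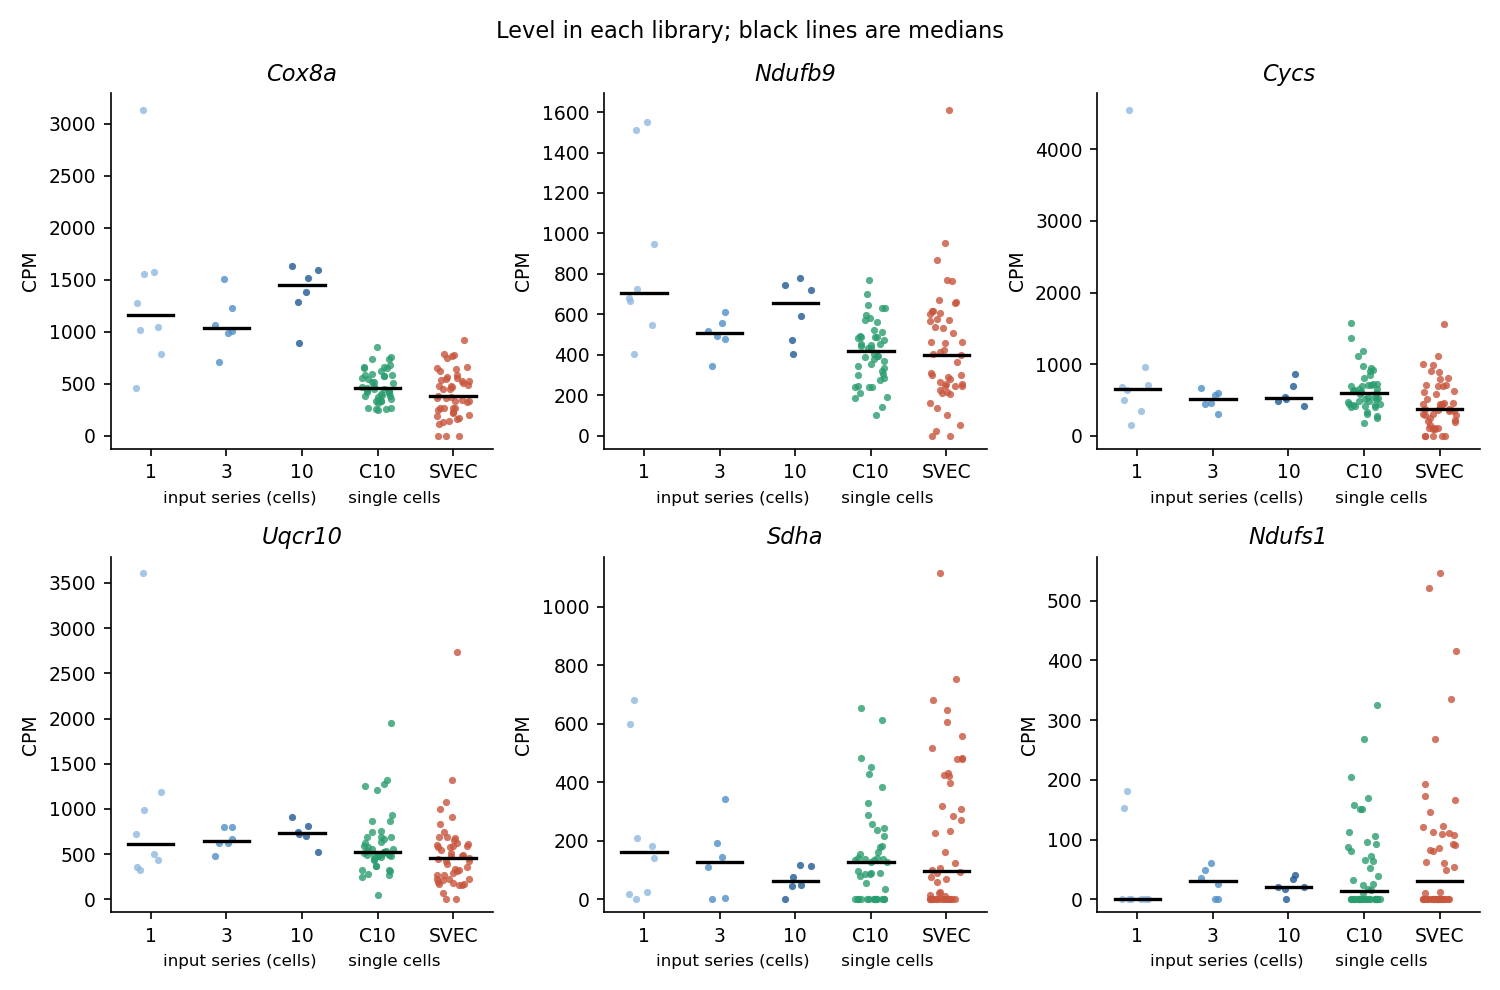
Levels in CPM of Cox8a, Ndufb9, Cycs, Uqcr10, Sdha and Ndufs1 in every library by group, with medians as lines. Cox8a is higher in the input series than in either single-cell set, the highest 1-cell points of Cox8a, Cycs and Uqcr10 are replicate 1, and Sdha and Ndufs1 are at or near 0 in some libraries of every group.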

How the data were processed

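The authors deposited whole-number read counts per gene symbol, 1 file per library, with 5 closing counters for reads not assigned to a gene. FastQC, STAR and HTSeq are named in the submitters' processing notes; versions, genome build, annotation and strand setting are not given in the sources used here. The labels' protocols name a SMART-Seq kit, which copies whole transcripts, and single reads of 150 bases, without molecular identifiers, so counts of PCR copies are not independent molecules. The closing counters held 24.5% to 95.9% of a library's reads and were left out of totals and tests.

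Samples were grouped by their titles. From the counts, shares of a library and CPM (the count over the library total, times 1000000) were computed; CPM is relative to the library, so a gene can also be lower because others are higher. Libraries under 1000 counts were left out. Genes entered a test when at least 25% of the libraries of 1 single-cell group, or 50% of those of 1 group of the input series, had a count. Tests were edgeR 4.0.16 quasi-likelihood fits with TMM scaling in R 4.3.3, each on the compared groups only except that the 3 input groups were fitted together, with Benjamini-Hochberg adjustment over all genes tested and a threshold of 0.05; limma 3.58.1 on log2(CPM + 1) and DESeq2 1.42.0 were alternatives, and the fits were tested on simulated data. A count over members is given beside the share of all genes called, and no test was made of the family as a set. Members and lists were chosen with earlier results of these data known. Genes were named by a fixed list of core, catalytic and paralog subunits, by the 8 largest called fold changes in each direction of each comparison among members with a count in at least 90% of the higher group's libraries, and by the 3 highest mean CPM in each single-cell group; other names were chosen after their values were seen. Same-numbered C10 and SVEC libraries deviated with a mean correlation of 0.0034, and 1 of 46 pairs exceeded 0.1. The main fits therefore did not pair libraries by replicate number. In the input series replicate 1 had the lowest total of its group with 1, 3 and 10 cells (430798, 6889508 and 8313314 counts). It also had the fewest detected genes (538, 8933 and 11477) and the highest mitochondrially encoded share (24.1%, 8.67% and 7.59%). A low mean correlation cannot exclude that libraries with the same number shared a step, and this was not tested.

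Gene names, transcript lengths and overlaps came from GENCODE and RefSeq annotations of GRCm38, which may differ from the build used for the counts. By these, 23 of the 88 genes have a copy of at least 97% identity over 150 bases, 27 overlap another gene, and 43 have either, so their counts are less certain. Python 3.11.15, pandas 2.3.3 and matplotlib 3.10.9 were used for summaries and plots.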

Additional observations from a re-analysis of the deposited data

Results flagged for a closer look

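There were 4 values, in 24 sets of libraries examined, that lay far from the rest of their group. Chance alone would give about 1.2 sets. That number is only a rough guide, since the sets share libraries and numbers of detected genes can tie. In replicate 1 of the 1-cell libraries, Cycs held 0.455% of counts, against 0.0144% to 0.0955% in the other 7, and 9 of the 88 genes had a count, where the other 7 had 70 to 78. Among 10-cell libraries, complex IV genes held 0.828% of counts in replicate 10, against 0.668% to 0.694% in the other 5 libraries. Replicate 1 of the 10-cell group had a count for 77 of the genes and the others for 78 each, a difference of 1 gene.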

How the results depend on the processing

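Between the lines, the 19 genes called (all higher in C10) became 9 with library totals (3 higher, 6 lower) and 34 by DESeq2. They became 12 with genes that reached 90% detection in either line (6 higher, 6 lower). With libraries of at least 100000 counts they became 32, and with the replicate number as a block 29. With the number of detected genes as a covariate they became 5, and after drawing down to 100000 counts 2. The last 4 were all higher in C10, where 17.4%, 31.5%, 7.23% and 8.92% of all genes tested were higher, against 14.4% of genes with TMM scaling. The median log2 fold change was −0.0397 with library totals. For 10 cells against 1 cell and 3 cells against 1 cell, DESeq2 called 7 and 3 genes, all lower (0.982% and 1.87% of all genes lower). The replicate block called 0 of the family, and 0% of all genes, in both comparisons. Leaving out each 1-cell library in turn gave 0 of the family throughout. The share of all genes called then ran from 2.46% to 20.3% for 10 cells and from 0.235% to 14.9% for 3 cells. For C10 single cells against 1-cell libraries, the 12 calls, all lower in single cells, became 41 lower with DESeq2 size factors (20.7% of all genes lower), 39 lower by DESeq2 (8.04%), 27 by limma (25 higher, 2 lower), 6 with the 90% filter (3 higher, 3 lower, with 2.6% and 3.52% of all genes) and 0 with the replicate block (0% of all genes), and 3 to 12 without 1 of the 1-cell libraries; leaving out those other than replicate 1 was added after seeing the data. With mitochondrial counts left out of the total, the family's share was 3.76% with 1 cell (3.38% without replicate 1), 3.45% with 3 cells and 3.79% with 10 cells. After drawing down, 3-cell libraries held 77.3 of the genes. Chosen after seeing the data, all single cells of at least 1000 counts gave, for nuclear against mitochondrial shares, Spearman and Pearson coefficients of 0.379 and −0.148 in C10 and 0.460 and −0.0981 in SVEC.

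Among the named genes and the others called with TMM scaling or library totals, the direction between the lines turned for 1 gene called with TMM scaling, Ndufa2, at −0.040 with library totals; the others that turned were not called in that fit. With library totals, log2 fold changes were −0.10 for Ndufv1, −0.067 for Sdhb, −0.039 for Sdhd, −0.19 for Uqcrc1, −0.24 for Atp5a1, −0.055 for Ndufb9, −0.31 for Atp5j and −0.43 for Atp5md. With the 90% filter they were −0.14 for Ndufv1, −0.0059 for Sdhb, −0.067 for Sdhd, −0.13 for Uqcrc1, −0.18 for Atp5a1, −0.20 for Atp5j and −0.25 for Atp5md. With detected genes as a covariate they were −0.38 for Ndufv1, −0.41 for Sdhd, −0.29 for Atp5a1, −0.016 for Atp5g2 and −0.015 for Atp5j. After drawing down they were −0.22 for Ndufv1, −0.020 for Sdhd, −0.098 for Atp5a1, −0.13 for Atp5j and −0.022 for Atp5md. Of the genes lower with library totals, Cox6c was at 0.0046 with DESeq2 size factors, 0.0139 by DESeq2, 0.0045 without a filter and 0.094 with the replicate block, Ndufc2 at 0.10 with libraries of at least 100000 counts and 0.11 with the block, and Atp5mpl at 0.071 and 0.0086. With libraries of at least 100000 counts Cox6c was at 0.14. Sdha was at 0.0008 with DESeq2 size factors and 0.0038 by DESeq2, Atp5j at −0.25 by limma and Atp5b at 0.14 with the replicate block. Cycs, lower in the single-cell set than in 1-cell libraries, was at 0.31 with the replicate block, and by limma 4 other genes called there turned: Atp5d at 0.23, Atp5e at 0.23, Ndufa9 at 0.11 and Uqcrh at 0.57, none called by limma. The causes were not tested. Of the other values of these genes, 271 between the lines kept direction and call, 67 kept direction but lost the call and 31 gained one, and between the C10 sets 107 kept both and 80 lost the call.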

Other observations

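The genes that the spelling of the rule left out were measured too, and were chosen here after their values were seen. Cox4i1, the usual isoform of complex IV subunit 4, was at 546 and 515 CPM in single cells of C10 and SVEC (log2 fold change 0.55, edgeR adjusted p = 0.0364), and at 1023 CPM with 3 cells and 1045 CPM with 10 cells of C10. Its lung isoform Cox4i2 had a count in 1 single cell, of C10. Ndufab1, the acyl carrier protein of complex I, was higher in C10, at 255 against 164 CPM (log2 fold change 0.97, edgeR adjusted p = 0.0197). Atpif1, the inhibitor of the ATP synthase, was at 1411 and 1173 CPM (log2 fold change 0.66, edgeR adjusted p = 0.0298). None of these 3 calls held with library totals, where the edgeR adjusted p-values were 0.818, 0.191 and 0.504.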
